A study of Mus musculus with 26 samples.

Results

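The interferon-stimulated genes described here are a list of 39 mouse genes, chosen with earlier results of these data known. Shares of the list set against shares of all genes are therefore descriptions of these lines. The 39 genes cover the transcription factors, RNA sensors, antiviral effectors and GTPases that cells make in response to interferon. Of these, 37 had a probe set that names a single gene, out of 18193 such genes on the array, and where a gene had several, the one brightest on average over the 26 arrays was used. The probe set for Isg15 names several genes and Ifi44 was not named in the probe annotation used here, so neither has values. A further 3 genes, Oas3, Mx1 and Cmpk2, stayed below the array median on every line and were not tested, which leaves 34 tested members among 12641 tested genes. A gene was tested if it lay above the median of all probe sets of the array on at least 2 arrays.

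The study profiled 26 mouse skin cell lines from different stages of tumour development on Affymetrix M430 2.0 arrays, with 1 array per line and values on the log2 scale after RMA, a method that adjusts background, normalizes arrays to one another and summarizes the probes of each probe set. All lines were untreated, were cultured with serum and were collected while growing exponentially. The keratinocyte group held 2 immortalized lines, C5N and NK, of which NK came from a p53 null mouse. The group annotated as squamous carcinoma without spindle pathology held 12 lines, and the spindle group held 7 lines (A5, H11, CarB, CarC, D3, D3DP and MSN2). Among the 12 non-spindle lines, 6 came from a Mus spretus cross: SN161 from Spretus/NIH, and MSCP5, MSC12, MSCP1, MSC11B and MSC7A from Spretus/CBA. For the other 6 (PDV, PDVC57, B9, B9ras, B9rassmad and E4) no cross was stated. The lines outside the group comparisons were the papilloma line P6, Hrasnull and B9Smad, whose cell type and pathology annotations conflict, and 2945CA and MSCb1, carcinoma lines with no spindle annotation, of which MSCb1 was from Spretus/CBA. Genotype, age and strain of the other lines were not given in the sources used here. Nothing in the annotation shows separate cultures of a line, and the p-values therefore reflect variation from line to line, several lines sharing a name (PDV and PDVC57, D3 and D3DP, B9 and its derivatives).

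Markers and annotation did not match for every line. Cdh1, which encodes E-cadherin, ranged from 3.02 to 3.78 in the 7 spindle lines and was 11.55 and 11.60 in the keratinocyte lines. MSC12, MSC11B and MSC7A were annotated as non-spindle, yet the mean of their epithelial markers was 4.03, 4.95 and 4.13, within or below the spindle range of 4.27 to 5.09. In a culture measured in bulk, fewer cells of a type and less RNA per cell cannot be told apart. Leukocyte markers gave summed levels of 46.7 to 53.1 over 10 genes, with group ranges of 46.9 to 47.9 in keratinocyte, 46.7 to 53.1 in non-spindle and 47.4 to 49.2 in spindle lines. Of these genes Ptprc, Itgam, Adgre1, Tyrobp and Cd79a were below the array median on all 26 lines, Csf1r, Cd3e and Laptm5 were above it on all 26, Cd68 on 18 and Lyz2 on 10. The closest arrays were A5 and H11, with a Pearson correlation of 0.9928 over probe sets, and no pair of arrays was identical.

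Type I interferons bind the receptor chains Ifnar1 and Ifnar2, and the kinases Jak1 and Tyk2 then activate Stat factors. Stat2 joins Irf9 in a complex that binds the interferon-stimulated response element (ISRE), while interferon gamma acts through Ifngr1, Ifngr2, Jak1 and Jak2 on the gamma-activated site (GAS). In epithelial cells the induced genes detect viral nucleic acid, degrade or block viral RNA, and attack the vacuoles of intracellular microbes, and many tumour cells keep a part of this programme on without added interferon.

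The elements behind these names can be read in the promoters of the members. RefSeq promoter windows (GRCm38.p6, 250 bases before to 50 after the start site) were held for 29 of the 39 genes. The ISRE was searched as GAAA, any 2 bases and GAAA again, and the GAS as TTCNNNGAA, both on both strands, and overlapping matches were allowed. An ISRE match lay in the windows of 15 of 29 members (51.7%), against 3.99% of 27025 genes and 3.44% of 32851 windows. A GAS match lay in 8 of 29 members (27.6%), against 9.55% of genes and 8.3% of windows. Bst2, Eif2ak2, Ifitm3, Igtp and Oas1a held both. These matches are letters in a window and no binding was measured. The windows of Ifit1 and Ifit3, neighbouring genes on chromosome 19, are shown whole because their values followed each other over the lines, with ISRE matches in capitals, 5′ to 3′ on the plus strand.
Ifit1 promoter, chr19:34640639-34640938: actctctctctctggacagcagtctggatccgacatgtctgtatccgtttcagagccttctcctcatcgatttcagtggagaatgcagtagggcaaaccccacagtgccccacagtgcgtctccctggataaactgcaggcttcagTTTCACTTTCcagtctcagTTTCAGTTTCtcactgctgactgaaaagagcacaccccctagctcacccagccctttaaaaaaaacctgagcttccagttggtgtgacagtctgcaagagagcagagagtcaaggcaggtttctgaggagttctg
Ifit3 promoter, chr19:34583279-34583578: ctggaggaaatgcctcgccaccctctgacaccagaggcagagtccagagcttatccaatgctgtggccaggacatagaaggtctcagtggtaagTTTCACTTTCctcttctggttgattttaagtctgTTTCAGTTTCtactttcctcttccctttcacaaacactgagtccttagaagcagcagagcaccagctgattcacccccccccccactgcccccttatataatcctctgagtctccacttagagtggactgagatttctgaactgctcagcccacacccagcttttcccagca
Each holds a pair of matches with the same letters, which begin at -104 and -85 from the start site in Ifit1 and at -156 and -122 in Ifit3. Neither of the 2 windows listed for their neighbour Ifit2 held an ISRE match, and 1 of them held a GAS match, shown in capitals. Whether these annotated start sites are the ones used in these lines was not tested. Matches and values paired in some members and not in others. Gbp2, Gbp3, Igtp, Irgm1 and Bst2 held an ISRE, and their correlation with the mean of the other members was 0.85, 0.86, 0.95, 0.83 and 0.81. Oasl1, Trim25 and Cmpk2 held none, at correlations of 0.30, 0.12 and 0.22. In contrast, the windows of Oasl2, Xaf1 and Sp100 held no ISRE at correlations of 0.93, 0.93 and 0.88. Those of Rsad2, Eif2ak2 and Ifitm3 held at least 1 at correlations of 0.15, 0.13 and 0.16.
Ifit2 promoter, first start site, plus strand, chr19:34550444-34550743: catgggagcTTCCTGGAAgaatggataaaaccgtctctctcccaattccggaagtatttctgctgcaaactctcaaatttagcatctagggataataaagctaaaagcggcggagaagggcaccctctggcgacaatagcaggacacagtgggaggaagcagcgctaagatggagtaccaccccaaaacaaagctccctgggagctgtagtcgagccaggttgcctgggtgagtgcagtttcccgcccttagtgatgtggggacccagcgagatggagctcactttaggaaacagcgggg
For a transcription factor, GTPases and effectors described below, 60 bases around the first ISRE match are shown, with the match or the run of overlapping matches in capitals, 5′ to 3′ on the strand of the gene.
Stat2, plus strand, chr10:128270251-128270310: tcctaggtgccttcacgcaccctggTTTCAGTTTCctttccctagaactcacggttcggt
Oas1a, minus strand, chr5:120907511-120907570: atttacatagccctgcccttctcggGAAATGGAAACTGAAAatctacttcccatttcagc
Rsad2, minus strand, chr12:26456538-26456597: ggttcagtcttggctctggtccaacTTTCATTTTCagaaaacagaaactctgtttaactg
Bst2, minus strand, chr8:71537568-71537627: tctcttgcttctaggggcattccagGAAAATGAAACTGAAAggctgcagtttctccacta
Gbp2, plus strand, chr3:142620579-142620638: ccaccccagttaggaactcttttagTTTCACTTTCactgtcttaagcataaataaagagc
Igtp, plus strand, chr11:58199497-58199556: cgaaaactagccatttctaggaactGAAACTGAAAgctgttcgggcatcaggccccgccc
Irgm1, minus strand, chr11:48871416-48871475: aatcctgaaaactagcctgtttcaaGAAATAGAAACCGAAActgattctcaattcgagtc
In Oas1a, Bst2 and Irgm1 the capitals hold a pair of matches that overlap by 4 bases.

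The number of members above the array median ranged from 13 to 34 of 37 over the lines, and 13 members, among them Irf1, Ifi35, Trim25 and Ifitm3, were above it on every line, whereas 19 were above it on 13 lines or fewer. Averaged over the 37 members, the log2 level was highest in the spindle line D3DP (7.77), followed by the spindle line CarC (7.51) and by MSCb1 (7.5), and the next line, CarB, was at 6.55. It was lowest in the keratinocyte line NK, at 5.21. D3DP held the highest value of 17 members, MSCb1 of 8, CarC of 6 and SN161 of 2. D3DP was among the highest 3 lines for 26 members, MSCb1 for 25 and CarC for 24. In D3DP 24 members lay at least 2-fold above their own mean over the lines and none lay 2-fold below, while in NK 14 lay at least 2-fold below and none above. The mean of the epithelial markers was low in D3DP (4.92) and CarC (5.09) and higher in MSCb1 (7.74).

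**Figure D1:**
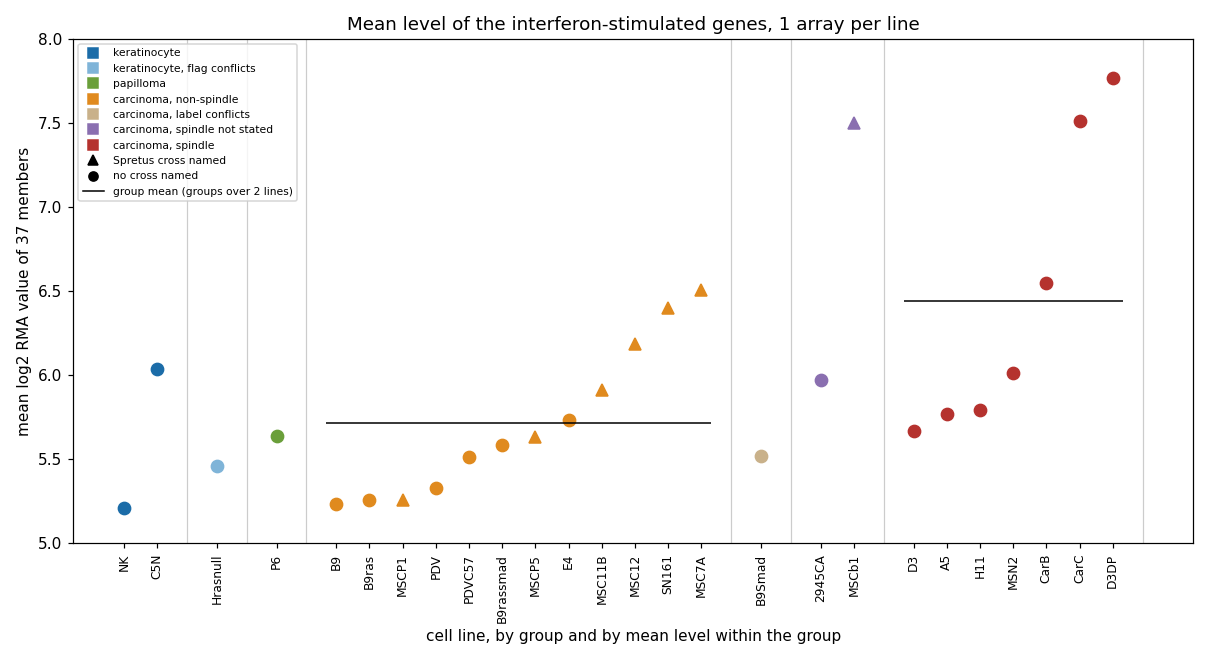
Mean log2 RMA value of the 37 measured members (vertical axis) in each of the 26 lines (horizontal axis, by group), with 1 array per point, triangles for lines from a Spretus cross and black bars for the means of the non-spindle and spindle groups. D3DP, CarC and MSCb1 lie between 7.5 and 7.77, and all other lines lie at or below 6.55.

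The spindle lines had a mean level of 6.44 ± 0.87 (SD, n = 7; lowest 5.66, median 6.01, highest 7.77) and the non-spindle lines 5.71 ± 0.45 (SD, n = 12; lowest 5.23, median 5.60, highest 6.50). The difference was 0.73 on the log2 scale and the groups overlapped: 4 of the 7 spindle lines, D3, A5, H11 and MSN2, at 5.66, 5.77, 5.79 and 6.01, lay within the non-spindle range. The keratinocyte lines C5N and NK were at 6.04 and 5.21, a mean of 5.62 ± 0.58 (SD, n = 2), so that C5N lay above 4 of the spindle lines. Hrasnull was at 5.46, the papilloma line P6 at 5.63, B9Smad at 5.52 and 2945CA at 5.97.

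**Figure D2:**
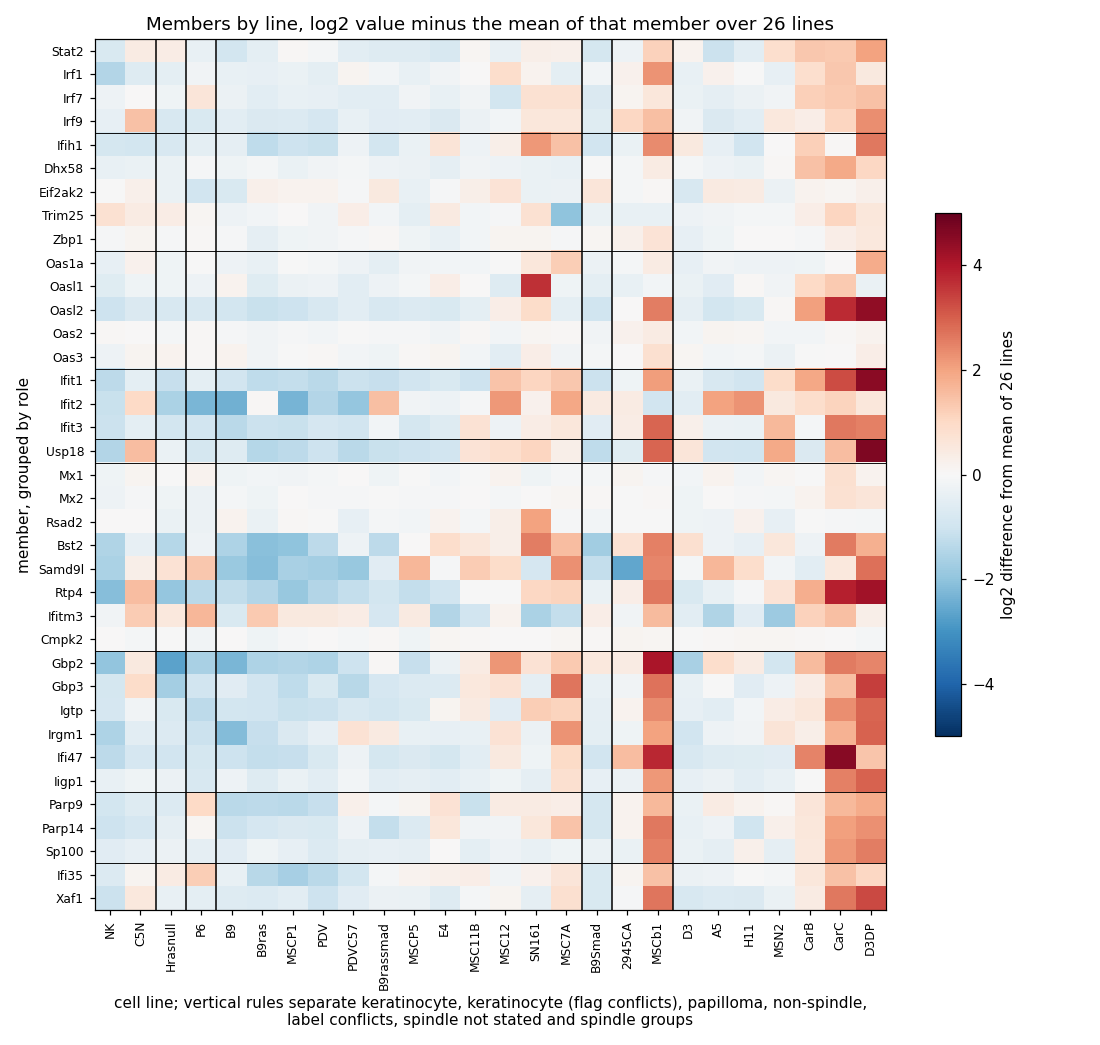
Each member (rows, grouped by role) in each line (columns, grouped by annotation), as the log2 value minus the mean of that member over the 26 lines, on a colour scale from -5 to 5. The columns of D3DP, CarC and MSCb1 are high across most roles, whereas Oasl1 and Rsad2 are highest in SN161 and Ifit2 is highest in H11.

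In the test of spindle against non-spindle lines (limma on all 12641 genes, Benjamini-Hochberg adjusted p under 0.05), 0 of the 34 members were called, where 0.0633% of all tested genes were. At an unadjusted p under 0.05, 14 members were higher in spindle lines and none lower, against 11.5% of all genes higher. The difference was positive in 33 of 34 members, against 55.8% of all genes, with a median of 0.83 against 0.04 for all genes. Because the members move together across lines, these 34 differences are not independent of each other. The list was also chosen with earlier results of these data known. Dhx58, Sp100, Iigp1 and Mx2 were above the array median on 3 lines each and so entered the test through the lines where they were high. Leaving out MSC12, MSC11B and MSC7A, the 3 non-spindle lines with few epithelial transcripts, gave 3 called members of 34, in a fit that called 15.5% of all genes and 8.37% as higher, so the members' share was near that of all genes. They were Ifit3 (1.63, adjusted p = 0.0223), Rtp4 (2.37, adjusted p = 0.0397) and Samd9l (1.73, adjusted p = 0.04999), all higher in spindle lines. Single lines moved several differences by over 1.5 times: without D3DP, Irf9 went from 0.76 to 0.44, Igtp from 1.09 to 0.72 and Iigp1 from 0.87 to 0.47, and without CarC, Ifi47 went from 1.34 to 0.72.

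Among the transcription factors, Stat2, the interferon-specific partner of Irf9, spanned 4.18 to 7.27 in spindle lines (median 6.09) and 4.33 to 5.53 in non-spindle lines (median 4.81). D3DP, CarB, CarC and MSN2 exceeded every non-spindle line, and A5 was the lowest of all 26. The difference was 0.91 (SE 0.34, adjusted p = 0.152). Irf9 differed by 0.76 (SE 0.36, adjusted p = 0.230) and was 7.81 in D3DP but 4.74 in A5. Outside the spindle group it was also high in MSCb1 (6.97) and in C5N (6.94). Irf7, which amplifies the interferon response, lay between 4.02 and 6.38 and was above the array median on 7 lines, with D3DP, CarC and CarB highest.

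Irf1, a transcription factor induced strongly by interferon gamma, was the member called in a stage comparison. Its values were 7.31 in NK and 8.13 in C5N, and 9.01, 8.76, 9.60, 10.11, 8.42, 9.25 and 8.37 in the spindle lines A5, H11, CarB, CarC, D3, D3DP and MSN2. All 7 spindle lines were above both keratinocyte lines, and so were all 12 non-spindle lines (8.28 to 9.65). Irf1 rose by 1.36 from keratinocyte to spindle lines (SE 0.39, limma adjusted p = 0.0463), 1 member called of 34 where 5.35% of all genes were called. The adjusted p became 0.496 without NK, with a difference of 0.95, and ranged from 0.0277 to 0.496 over all alternatives. The call was also lost when C5N, PDV, SN161, B9ras, B9rassmad, MSCP1, PDVC57, E4, D3DP, A5, H11, CarC or CarB was left out. Hrasnull, also described as an immortalized keratinocyte line, was at 8.29. The highest value of all was 11.03, in MSCb1.

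The RNA sensors differed in how widely they varied and in which lines were high. Ifih1, the sensor of long double-stranded RNA, ranged from 4.03 in B9ras to 7.96 in D3DP, with MSCb1 at 7.67 and SN161 at 7.46. CarC, high for most members, was at 5.37. Dhx58, a regulator of the RNA sensors, was 6.26 in CarC, 5.83 in CarB and 5.40 in D3DP and at most 4.79 elsewhere. Its spindle minus non-spindle difference was 0.79 (SE 0.25, adjusted p = 0.112). Eif2ak2, the kinase that halts translation on viral RNA, stayed between 6.05 and 7.66. Another Eif2ak2 probe set was 4.95 in D3 and 7.48 in CarC. Trim25, a ubiquitin ligase for RNA sensors, was between 8.62 and 10.17 in all lines but MSC7A, where it was 7.10. Zbp1, a sensor of Z-form nucleic acid, spanned 5.43 to 6.56. Its other probe set was 3.86 in D3 and 5.81 in CarC.

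The oligoadenylate synthetases make the second messenger that activates RNase L, and Oasl1 and Oasl2 are relatives with ubiquitin-like domains. Oasl2 was 8.66 in D3DP, 7.94 in CarC, 6.79 in MSCb1 and 6.26 in CarB, and no other line exceeded 5.14. It was 3.30 to 4.28 in the remaining spindle lines, so that the group difference of 1.68 (SE 0.62, adjusted p = 0.149) came with a wide spread within the spindle group. Oas1a was 8.72 in D3DP and 8.07 in MSC7A, with the other 6 spindle lines between 6.44 and 6.89. Oasl1 followed another order: it was 8.66 in SN161, 6.32 in CarC and 5.98 in CarB, and D3DP was at 4.66. Oas2 spanned 5.4 to 6.0 and Oas3 3.68 to 5.01.

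Among the Ifit proteins, Ifit1 binds viral RNA that lacks host cap methylation. Ifit1 was 9.36 in D3DP, 8.08 in CarC, 6.91 in MSCb1 and 6.77 in CarB, and among spindle lines it was lowest in H11 (3.88). The spindle lines had a median of 5.77 and the non-spindle lines of 3.83, with a difference of 1.71 (SE 0.67, adjusted p = 0.169). Ifit3, which joins Ifit1 in complexes in human cells, was highest in MSCb1 (8.25), CarC (7.97), D3DP (7.87) and MSN2 (6.98), with a difference of 1.36 (SE 0.43, adjusted p = 0.117). Over the 26 lines Ifit1 and Ifit3 had a Pearson correlation of 0.82. Ifit2 was highest in H11 (8.89), MSC12 (8.78), A5 (8.62) and MSC7A (8.56), while D3DP was at 7.21 and MSCb1 at 5.68. Its correlation with Ifit1 was 0.35 and with Ifit3 0.34. These correlations describe 26 lines that were normalized together and have no test.

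Usp18, the protease that removes Isg15 from proteins and dampens receptor signalling, was 9.46 in D3DP, 7.73 in MSCb1, 6.69 in MSN2, 6.34 in C5N and 6.33 in CarC. CarB, high for Ifit1 and Oasl2, was at 4.08, and NK was lowest at 3.35.

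Among the antiviral effectors, Rtp4, an interferon-induced inhibitor of viral replication, showed the largest spindle minus non-spindle difference of the members, 2.03 (SE 0.69, adjusted p = 0.131). It was 10.20 in D3DP, 9.90 in CarC and 7.84 in CarB, and 5.23 to 6.68 in the other 4 spindle lines, against a non-spindle median of 4.93 (4.12 to 7.11). C5N reached 7.54 and NK 3.89, so the 2 keratinocyte lines differed by more than the group difference. Bst2, which tethers budding virus to the cell surface, was 9.88 in CarC, 9.85 in SN161, 9.79 in MSCb1 and 9.07 in D3DP. Samd9l, a restriction factor of poxviruses, was 9.56 in D3DP, 9.23 in MSCb1 and 9.09 in MSC7A and lowest in 2945CA (4.21). Ifitm3, which blocks viral fusion, was 10.20 to 13.68 in all lines and highest in P6. Rsad2, which makes a chain-terminating nucleotide, was 7.61 in SN161 and 5.2 to 5.91 elsewhere. Mx1 and Mx2, dynamin-like antiviral GTPases, were highest in CarC (4.57 and 5.74), and Cmpk2, a nucleotide kinase encoded beside Rsad2, spanned 4.44 to 4.80.

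The interferon-inducible GTPases act on the membranes around intracellular microbes. Gbp2 was 10.07 in MSCb1, 8.58 in CarC, 8.40 in D3DP and 8.20 in MSC12, with the lowest value in Hrasnull (3.30). Its probe set is of a kind that can share probes with related transcripts, and the other Gbp2 probe set had the same highest line. Gbp3 was 8.76 in D3DP, 8.01 in MSCb1 and 7.96 in MSC7A. Igtp was 9.46, 8.88 and 8.87 in D3DP, MSCb1 and CarC, with a spindle minus non-spindle difference of 1.09 (SE 0.47, adjusted p = 0.204). Irgm1 reached 10.48 in D3DP and 9.79 in MSC7A. Ifi47 was highest in CarC (9.90), then MSCb1 (9.12) and CarB (7.82), and D3DP was at 6.72. Iigp1 was 7.11 in D3DP, 6.71 in CarC and 6.36 in MSCb1, and at most 4.96 in any other line.

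Parp9, an ADP-ribosyltransferase, was 8.51 in D3DP, 8.27 in CarC and MSCb1, and 7.63 in P6, with a spindle minus non-spindle difference of 0.97 (SE 0.36, adjusted p = 0.152). Its relative Parp14 was 8.01, 7.63 and 7.41 in MSCb1, D3DP and CarC. Sp100, a component of nuclear bodies, was 6.73, 6.70 and 6.36 in D3DP, MSCb1 and CarC and at most 4.71 elsewhere. Xaf1, a promoter of apoptosis, was 8.98, 8.36 and 8.30 in the same lines. The other Xaf1 probe set had a correlation of 0.29 with this one and was highest in SN161 (7.70), so the pattern of Xaf1 depends on the probe set. Ifi35, which binds partners through leucine zippers, was between 7.45 in MSCP1 and 10.58 in MSCb1, with P6 at 10.33.

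**Figure D3:**
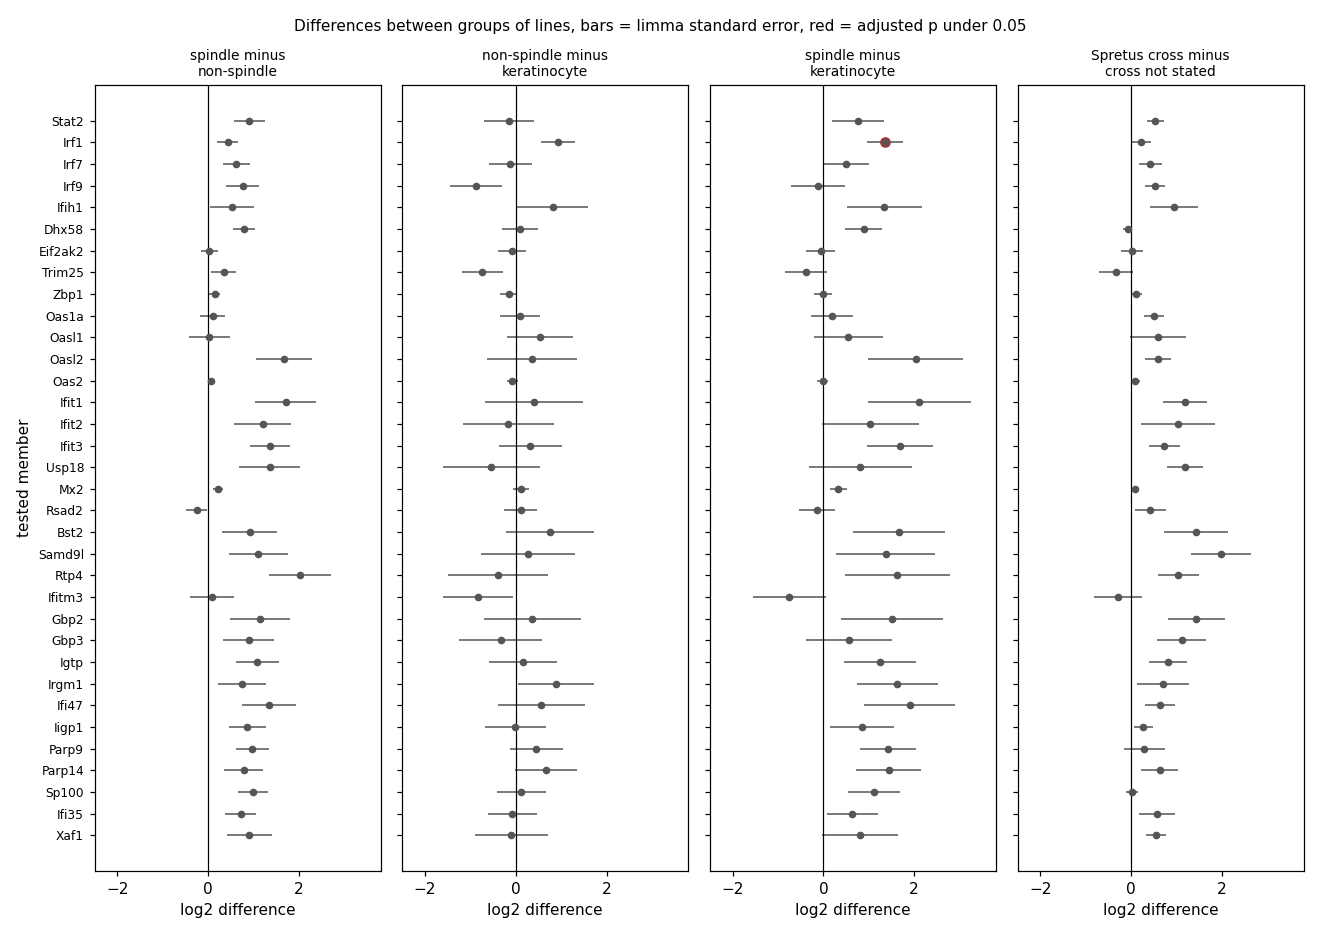
Log2 difference of each tested member (rows, by role) in 4 comparisons of groups of lines, with bars for the limma standard error and red for an adjusted p under 0.05. Points lie to the right of 0 for 33 of 34 members in spindle minus non-spindle, and Irf1 in spindle minus keratinocyte is the called point.

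Non-spindle carcinoma lines were near the keratinocyte lines. None of the 34 members was called by limma (2.02% of all genes were), and 1 member, Irf1, was higher at an unadjusted p under 0.05 (5.42% of all genes were), with a difference of 0.93 (SE 0.37, adjusted p = 0.285) that was 0.52 without NK and 1.34 without C5N. The differences were positive in 19 members and negative in 15, against 51.7% of all genes positive, with a median of 0.10 against 0.02 for all genes, and the mean level differed by 0.09. Leaving out NK turned this difference to -0.33 and leaving out C5N gave 0.50, so that either keratinocyte line sets its sign. Spindle against keratinocyte lines gave a difference of 0.81 in mean level, which was 0.40 without NK and 1.23 without C5N. Besides Irf1, Ifit3 (1.68, SE 0.73, adjusted p = 0.193), Parp9 (1.42, SE 0.61, adjusted p = 0.193) and Dhx58 (0.89, SE 0.41, adjusted p = 0.229) were higher at an unadjusted p under 0.05, 4 members in all, where 10.7% of all genes were. The members' share was therefore near that of all genes. Dhx58 was above the array median only on the spindle lines CarC, CarB and D3DP, and so entered the test through the group where it was high. The difference was positive in 27 of 34 members, against 54.1% of all genes. The comparisons share the keratinocyte lines and the spindle lines with one another.

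Within the non-spindle lines, those from a Spretus cross had a mean level of 5.98 ± 0.48 (SD, n = 6; lowest 5.26, median 6.05, highest 6.50) and those with no stated cross 5.44 ± 0.20 (SD, n = 6; lowest 5.23, median 5.42, highest 5.73). MSC7A, SN161, MSC12 and MSC11B lay above all 6 lines with no stated cross, and MSCP5 (5.63) and MSCP1 (5.26) lay within their range. By limma 0 of 34 members were called, as were 0% of all genes. At an unadjusted p under 0.05, 9 members were higher in the cross lines and none lower, against 6.46% of all genes higher. The difference was positive in 31 of 34 members, against 52.9% of all genes.

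Samd9l had the largest difference with the cross, 1.98 (SE 0.65, adjusted p = 0.417), with values of 8.48, 7.70, 8.07 and 9.09 in MSCP5, MSC12, MSC11B and MSC7A and of 4.69 to 6.73 in the lines with no stated cross. SN161, from the Spretus/NIH cross, was at 5.95 and MSCP1 at 5.18. Usp18 was 5.89, 5.66, 5.48 and 5.09 in SN161, MSC12, MSC11B and MSC7A and at most 4.14 in the lines with no stated cross, a difference of 1.19 (SE 0.40, adjusted p = 0.417). Gbp2 differed by 1.44 (SE 0.63, adjusted p = 0.451), and Ifit1 by 1.19 (SE 0.49, adjusted p = 0.433). MSC12, MSC11B and MSC7A are also the non-spindle lines with low epithelial markers, and without them the difference in mean level was 0.32 rather than 0.54. The part of the low epithelial markers in the difference was not tested. MSCb1, also Spretus/CBA and outside this comparison, was higher than any of the 6 at 7.5.

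The spindle lines D3 and D3DP share a name, and the members were far apart in them. Of the 34 tested members, 25 were at least 2-fold higher in D3DP and none 2-fold lower, where 4.85% of all tested genes were 2-fold higher and 2.9% lower. The median difference of the tested members was 2.20 on the log2 scale, against 0.01 for all genes. Dhx58, Sp100 and Iigp1, counted among the 25, were above the array median on 3 lines each, D3DP being 1 of them. Rtp4 was 5.23 in D3 and 10.20 in D3DP, Oasl2 3.76 and 8.66, Ifit1 4.50 and 9.36, Xaf1 4.88 and 8.98, and Usp18 5.40 and 9.46. The tested members that differed least were Oasl1 (4.65 and 4.66), Rsad2 (5.41 and 5.51) and Oas2 (5.44 and 5.76). Each line has 1 array, so these differences have no replicate check and no test. Over all probe sets the array closest to D3DP was that of MSN2 (correlation 0.9869), where Rtp4 was 6.68 and Oasl2 4.28.

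**Figure D4:**
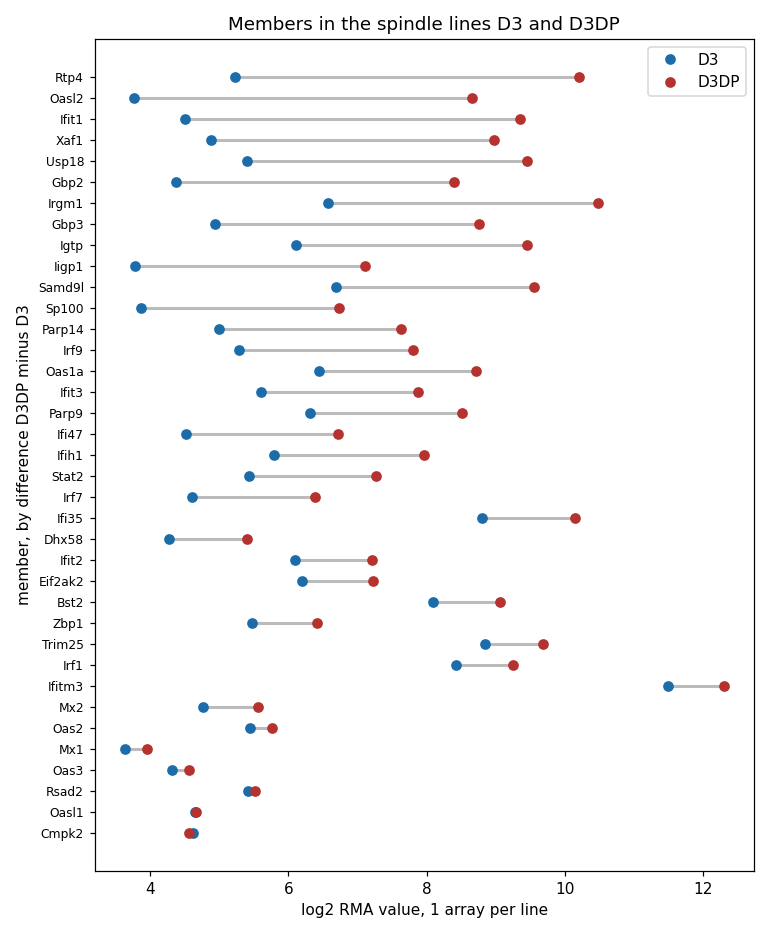
Log2 RMA values (horizontal axis) of the 37 measured members (rows, ordered by the difference) in the spindle lines D3 (blue) and D3DP (red), 1 array each. Rtp4 has the widest gap, from 5.23 to 10.20, and Oasl1 and Cmpk2 have almost none.

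Among the receptors and kinases of the pathway, Ifnar1 was 7.89 in D3 and 7.96 in D3DP, Ifnar2 7.81 and 8.26, Ifngr1 8.32 and 8.40, Ifngr2 6.96 and 7.34, Il10rb 7.32 and 8.17, Jak1 9.29 and 9.58, Jak2 8.35 and 8.40, and Tyk2 6.60 and 6.94. Ifnar2 and Il10rb were high in CarC (10.28 and 9.12) and MSCb1 (10.13 and 9.10). They were also high in SN161 (10.16 and 9.54) and in P6 (9.83 and 8.96), whose mean level of the members was 5.63. In D3DP, Ifnar2 lay below its median over the lines of 8.69. Of the genes that lead to interferon production, Irf3 was 8.91 and 9.04 in D3 and D3DP and Sting1 6.55 and 6.55, whereas Ddx58, the RNA sensor also known as RIG-I, was 6.42 and 8.75. The interferon genes Ifnb1, Ifna2, Ifna4 and Ifng were below the array median on all 26 lines, with highest values of 4.56, 4.75, 4.90 and 3.92. Ifnar1 spanned 7.32 to 8.63 and Ifngr1 7.79 to 9.43, and both were above the array median on every line. Of 23 tested genes of a pathway list of receptors, kinases, inhibitors and inducers, 1 rose from keratinocyte to spindle lines, Jak2 by 0.94 (SE 0.24, adjusted p = 0.0283), where 5.35% of all genes were called, and none was called in the other 3 comparisons. The Jak2 call was lost without C5N (a difference of 0.70) and without NK (1.18), each of which leaves 1 keratinocyte line. It was also lost with the lines of unclear annotation placed by cell type (0.70, limma adjusted p = 0.129). The inhibitor Socs3 was highest in MSCb1 (10.74) and CarC (10.37), then CarB (10.29) and the keratinocyte line C5N (10.09), with D3DP at 9.03. Another inhibitor, Socs1, was lowest in MSCb1 (4.87) and highest in D3 (6.60), with D3DP at 5.76.

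MHC class I genes, which present peptides to T cells and are raised by interferon, had a mean that followed the mean of the members over the 26 lines with a Pearson correlation of 0.75. The single genes differed: it was 0.82 for Tap2, 0.76 for Psmb9, 0.75 for Psmb8 and 0.68 for B2m. For the heavy chains H2-K1 and H2-D1 it was 0.31 and 0.28, and for Tapbp and Erap1 0.16 and 0.22. Of 11 tested genes, 3 (where 5.35% of all genes were called) rose from keratinocyte to spindle lines: H2-K1 by 3.68 (SE 0.71, adjusted p = 0.00495), H2-D1 by 4.01 (SE 0.80, adjusted p = 0.00606) and Psme1 by 3.68 (SE 0.87, adjusted p = 0.0180). Where 2.02% of all genes were called, H2-K1 and H2-D1 also rose from keratinocyte to non-spindle lines, by 3.38 (SE 0.68, adjusted p = 0.00971) and 3.71 (SE 0.76, adjusted p = 0.0107). These calls rested on C5N, where H2-K1 was 5.94, H2-D1 5.83 and Psme1 3.61, against 8.61, 8.94 and 8.81 in NK. Without C5N the spindle minus keratinocyte differences were 2.34, 2.46 and 1.08 (adjusted p = 0.180, 0.206 and 0.538) and the non-spindle ones 2.04 for H2-K1 and 2.15 for H2-D1 (adjusted p = 0.391 and 0.445). With the probe set that varies most, H2-K1 turned to -0.001 in spindle and -0.51 in non-spindle minus keratinocyte (limma adjusted p = 0.9997 and 0.957). Its direction therefore depends on the probe set. With that choice H2-D1 was at 2.18 and 2.06 and lost both calls (adjusted p = 0.382 and 0.608). With unclear lines placed by cell type, both genes lost their calls (adjusted p = 0.104 to 0.209). Hrasnull, outside the main comparisons, was at 11.71 for H2-K1 and 12.41 for H2-D1. Between spindle and non-spindle lines and between crosses 0 of 11 were called. Psmb8 and Psmb9, subunits of the immunoproteasome, were highest in MSCb1 (9.43 and 9.33), with CarC at 8.86 and 7.15 and CarB at 8.37 and 7.28. In D3DP they were 5.10 and 5.99.

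The other name families showed smaller differences, again with 1 array per line. PDVC57 had 3 tested members at least 2-fold higher than PDV and none lower, where 4.78% of all genes were higher and 4.64% lower. The 3 were Irgm1, Parp9 and Bst2. Against B9, the numbers at least 2-fold higher were 3 in B9ras, 7 in B9rassmad and 5 in B9Smad, where 8.54%, 13.4% and 10.6% of all genes were. The numbers 2-fold lower were 1, 0 and 0, where 7.11%, 10.3% and 10.1% of all genes were. These 3 comparisons share the B9 array. Ifit2 was the largest in each, at 4.21 in B9, 6.67 in B9ras, 8.13 in B9rassmad and 7.06 in B9Smad. Irgm1 was 5.39 in B9 and 6.38, 7.98 and 7.07 in the derivatives, and Gbp2 was 3.67, 4.43, 6.04 and 6.50. Both stayed under 2-fold in B9ras, where the 3 counted members were Ifit2, Ifitm3 and Eif2ak2, a share near that of all genes. Eif2ak2 was 6.23 in B9 and 7.23, 7.49 and 7.61 in the derivatives, at least 2-fold higher in each. Ifit1 stayed between 3.57 and 3.87 in these 4 lines.

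The members did not all follow one order of lines. The Pearson correlation of a member with the mean of the other members over the 26 lines was at least 0.8 for 17 of 37, with Rtp4 (0.95), Igtp (0.95), Ifit1 (0.94), Xaf1 (0.93) and Oasl2 (0.93) highest. It was between 0.4 and 0.8 for 13 and under 0.4 for 7, which were Ifit2, Oasl1, Cmpk2, Ifitm3, Rsad2, Eif2ak2 and Trim25. Some high values leaned on a few lines. Sp100 and Iigp1, above the array median on 3 lines each, had Pearson correlations of 0.88 and 0.89 but rank correlations of 0.63 and 0.56. Among 12607 tested genes outside the list, 0.175% reached 0.8, but the list was chosen with earlier results of these data known. The mean correlation between members was 0.47, against 0.0079 between all tested genes. Rsad2 and Oasl1, both highest in SN161, had a correlation of 0.83 with each other. In SN161 Bst2 (9.85) and Ifih1 (7.46) were high as well. Iigp1 (3.72) and Sp100 (3.81) were below the array median there, as on most lines, and close to their own medians over the lines (3.83 and 3.82). SN161 also had the highest Cd68, a macrophage-associated lysosomal protein (log2 level 10), whose part in these values was not tested, and its Ptprc was below the array median.

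**Figure D5:**
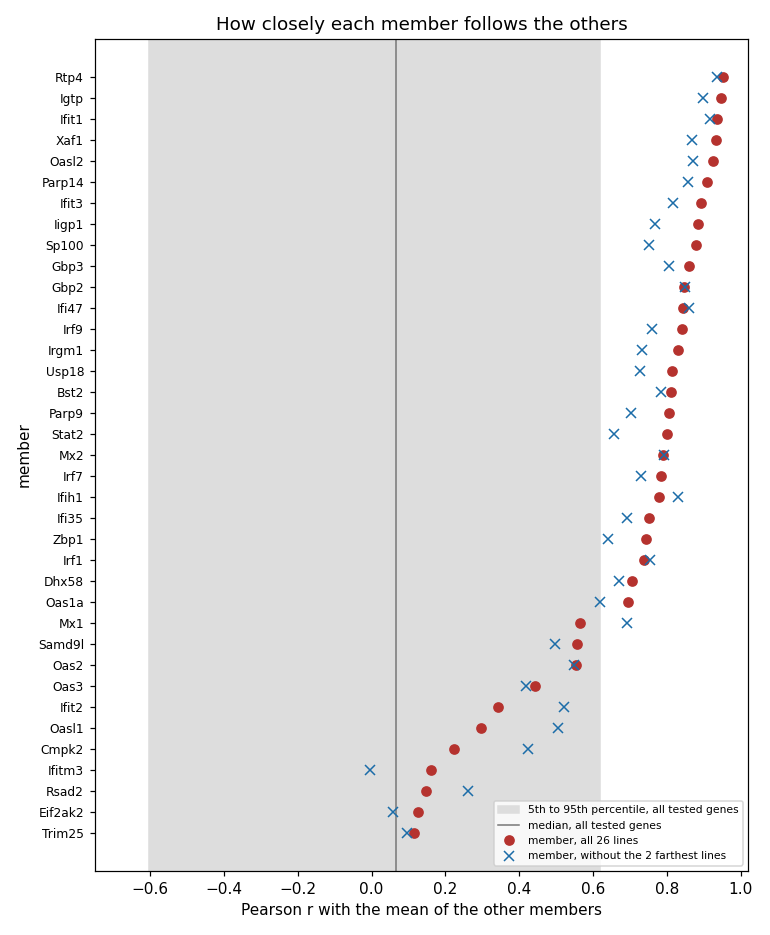
Pearson correlation over the 26 lines of each member (rows) with the mean of the other members, with all lines (circles) and without the 2 lines farthest from the median of that mean (crosses), and the 5th to 95th percentile of all 12641 tested genes in grey. Rtp4 and Ifit1 stay above 0.9 either way, and 7 members lie under 0.4 with all lines.

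Among tested genes outside the list, the 10 with the highest correlation to the mean of the members over the 26 lines were Irgm2 (0.97), Idnk (0.89), Atxn7l1 (0.86), Znfx1, Synpo, Ifi27, Lgals3bp, Dnal1, Dtx3l and Borcs6 (0.84). Irgm2 was 7.86 in D3DP, 8.03 in CarC, 7.30 in MSCb1 and 4.03 in D3, with a median of 3.82 over the lines. Ifi27 was 10.43, 10.70 and 10.91 in D3DP, CarC and MSCb1 and 7.81 in D3. The mean of the members had a correlation of -0.56 with the mean of the epithelial markers, 0.55 with that of the mesenchymal markers and 0.21 with that of the leukocyte markers. All of these describe the same 26 arrays, which include lines that share a name, and none has a test.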

How the data were processed

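RNA from 26 mouse skin cell lines was hybridised to Affymetrix M430 2.0 arrays, 1 array per line. The deposited values are on the log2 scale, were made with RMA per the submitters' processing notes (version and settings not given in the sources used here), and range from 2.28 to 14.92 over 45037 probe sets, with array medians of 5.04 to 5.15. They were not normalized again. RMA draws low signals together, so differences between low values are understated, and precision is set by how many arrays a group has. Of the probe sets, 34945 name 1 gene, 932 name several and 9160 are unnamed here. Of those naming 1 gene, 34741 matched RefSeq. Where a gene had several, the brightest on average was used.

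Genes above the array median on at least 2 arrays (12641 of 18193) were tested with limma 3.58.1 in R 4.3.3 (lmFit, eBayes), with Benjamini-Hochberg adjustment over all tested genes. Keratinocyte, non-spindle and spindle lines entered 1 fit, and the cross was fitted within the 12 non-spindle lines. The fit was tested on simulated data. The level of a set is the mean log2 value of its 37 measured members, without a test. Alternatives changed the probe set per gene, the filter, the scaling, the spread model, the treatment of lines that share a name, and the lines entering. All members were named by role. Of the pathway and MHC class I lists the called genes and others by role were named, with the 10 genes outside the list that correlate best with the mean of the members. The members and all gene lists were chosen with earlier results of these data known. Promoters were from RefSeq, and were not used for the 10 members without an entry (Oas2, Mx1, Mx2, Dhx58, Usp18, Parp9, Parp14, Rtp4, Iigp1 and Zbp1).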

Additional observations from a re-analysis of the deposited data

Results flagged for a closer look

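Within groups of 6 or 7 lines, 8 of 114 checks (37 members and their mean, in 3 groups) found 1 line far from the others of its group. Chance alone gives about 1 in 20. Among spindle lines, Oas1a was 8.72 in D3DP, with the next line at 6.89, and Mx1 was 4.57 in CarC, with the next at 3.95. Among non-spindle lines from a Spretus cross, SN161 stood apart for Oasl1 (8.66, next 5.02) and Rsad2 (7.61, next 5.91). In the same group Iigp1 was 4.96 in MSC7A (next 3.96), and Ifi35 was 7.45 in MSCP1, below the next line at 8.93. Among non-spindle lines with no stated cross, Igtp was 6.67 in E4 (next 5.73), and Mx2 was 4.76 in B9ras, below the next line at 4.89. MSCb1, which entered no comparison of stages, had a mean level of the members of 7.5, above the higher keratinocyte line at 6.04.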

How the results depend on the processing

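The difference in mean level kept its direction in 3 comparisons under all alternatives: 0.47 to 0.89 for spindle minus non-spindle, 0.40 to 1.23 for spindle minus keratinocyte, and 0.32 to 0.69 for the cross. For non-spindle minus keratinocyte it ran from -0.33 (without NK) to 0.50 (without C5N), so its sign changed. The call of Irf1 in spindle minus keratinocyte was lost, leaving 0 called members, with no filter (adjusted p 0.0584), with the lines that share a name as a random block (0.0509) or averaged (0.0577), and with unclear lines placed by cell type (0.148). Leaving out each line in turn gave 0 to 1 called members there, with 0 in 14 of 21 cases, and the adjusted p ranged from 0.0277 to 0.496 over all alternatives. In spindle minus non-spindle, 3 members were called without MSC12, MSC11B and MSC7A, where 15.5% of all genes were, and 0 under the other alternatives. Over all alternatives the adjusted p there ranged from 0.0223 to 0.491 for Ifit3 and from 0.0397 to 0.409 for Rtp4. No difference of a tested member named with its p changed sign. Among MHC class I genes, H2-K1 turned to -0.001 (spindle minus keratinocyte) and -0.507 (non-spindle minus keratinocyte) with the probe set that varies most. H2-D1 kept its direction there but lost both calls. The alternatives for pathway and MHC class I genes were chosen after seeing the data. Adding MSCb1 and 2945CA to the comparison of crosses, chosen after seeing the data, gave 0.68. Where a keratinocyte line was left out, the remaining one was assumed to vary like the other groups. No paired analysis was possible because replicate numbers follow the order of deposition and pair no lines. With 1 array per line and 2 keratinocyte lines, differences below the spread between lines were not detectable, and members near background have compressed differences.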
